A study of Homo sapiens with 2 samples.

Results

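Albumin and the other proteins of blood plasma named here are secreted chiefly by hepatocytes, and their genes were examined in SW620, an established line from a human colon carcinoma. The set was a list of 50 gene symbols, and every probe carrying one of these symbols in the platform's annotation was taken. In all, 48 of the 50 symbols had a probe, 59 probes together, out of 18638 symbols on the array. ORM1 and APOC2 had no probe under their own symbols. The members were chosen by name and role after the ratio of the arrays was known, with ALB among the lowest of all genes, so the ALB values describe why the set was examined and support nothing further.

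The series compared SW620 cells with a control lentivirus (1 array) and SW620 cells made to express CDR1AS (1 array), a circular RNA that binds the microRNA miR-7. Both were grown in DMEM with fetal bovine serum and without further treatment. Whether either population was a clone or a pool, and which promoter drove CDR1AS, was not stated in the labels. With 1 array a group there was no replicate error and no test. Every difference below is therefore a difference between 2 arrays, and their number limits the precision of every value.

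Plasma proteins of hepatic origin fall into a few families by task. Albumin, alpha-fetoprotein and afamin are related carrier proteins whose genes lie next to each other, and alpha-fetoprotein is the fetal counterpart of albumin and a tumour marker. Apolipoproteins hold lipid particles together, fibrinogen and the clotting factors form the clot, and complement proteins mark microbes for destruction. Acute phase proteins change in amount during inflammation. C/EBP and FOXA proteins are known activators of these genes in liver, and complement genes are also made outside the liver by epithelial cells under inflammatory signals.

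The promoters of the albumin family are shown because its ALB and AFP members were both lower on the CDR1AS array, whereas AFM was not above background. FGB, the fibrinogen beta chain gene, is shown beside them as a gene with the same motif and near-equal spots, though these were dim and close to background. Each line holds the 250 bases before the transcription start in RefSeq (GRCh38.p14), and capitals mark the letters TTGCNNAA, the motif of C/EBP proteins, on either strand.
ALB, chr4:73404037-73404286, plus strand: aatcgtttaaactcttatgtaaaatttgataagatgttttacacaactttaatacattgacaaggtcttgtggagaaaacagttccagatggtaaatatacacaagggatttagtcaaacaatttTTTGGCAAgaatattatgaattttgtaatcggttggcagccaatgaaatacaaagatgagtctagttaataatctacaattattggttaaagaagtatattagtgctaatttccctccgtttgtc
AFP, chr4:73435971-73436220, plus strand: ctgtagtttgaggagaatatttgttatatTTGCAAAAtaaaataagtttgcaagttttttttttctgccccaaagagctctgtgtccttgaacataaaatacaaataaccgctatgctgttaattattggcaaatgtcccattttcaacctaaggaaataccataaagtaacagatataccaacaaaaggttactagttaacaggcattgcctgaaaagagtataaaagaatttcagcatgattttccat
AFM, chr4:73481495-73481744, plus strand: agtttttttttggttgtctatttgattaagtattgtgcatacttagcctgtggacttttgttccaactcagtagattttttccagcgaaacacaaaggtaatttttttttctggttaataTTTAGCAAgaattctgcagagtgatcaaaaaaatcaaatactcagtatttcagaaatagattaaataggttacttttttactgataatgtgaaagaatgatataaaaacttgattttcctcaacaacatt
FGB, chr4:154562730-154562979, plus strand: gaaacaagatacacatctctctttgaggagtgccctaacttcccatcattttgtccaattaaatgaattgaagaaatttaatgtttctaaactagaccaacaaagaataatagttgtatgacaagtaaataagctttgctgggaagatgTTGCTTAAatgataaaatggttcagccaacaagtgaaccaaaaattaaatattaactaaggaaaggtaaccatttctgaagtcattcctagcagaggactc

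In the windows shown, the C/EBP letters lay closest to the start in FGB and farthest from it in AFP. They began 125 bases before the start in ALB, 221 in AFP, 130 in AFM and 101 in FGB. In ALB and AFM they were on the opposite strand, reading TTTGGCAA and TTTAGCAA. RefSeq lists another start for FGB, and the window of the upstream one is shown. The same letters began 132 bases before the other start, farther than in ALB and AFM. Of the 50 members, 38 had a window in the promoter table, 51 windows in all, since 9 members had several. TTGCNNAA occurred in 12 of these 51 windows (23.5%) and in 9.05% of all 35116 windows of that length. TATAAA was present in the AFP and AFM windows and in 17.6% of member windows against 10.7% of all. CCAAT occurred in 49.0% of member windows against 32.0%, TTCNNNGAA of STAT proteins in 15.7% against 6.57%, TGTTTAC of FOXA proteins in 7.84% against 2.98%, and GGANTTTCC of NF-kB in 1.96% against 1.45%. Both strands were searched, and in the 4 printed windows no C/EBP match shared a base with another motif's match. A match is a description of letters and not a binding site. C3 and A2M had no window in the table.

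Genes with the C/EBP letters differed among themselves on the arrays. Of the 11 members with TTGCNNAA, 9 were above background on at least 1 array, and AFM and AHSG were on neither. ALB was at least 2-fold lower and AFP followed (−0.66), whereas 5 members (TF, FETUB, HPX, FGA and FGB) had log2 ratios within 0.1 of 0. Of these 5, FGA alone was at 2 times the background limit or more. TF, FETUB and FGB lay close to the limit on both arrays, where the offset holds ratios near 0, so theirs say little. RBP4, the retinol carrier gene, had −0.14, and LCN2 was above background on the control array only. The C/EBP motif was picked for the capitals after its matches had been seen.

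ALB encodes serum albumin, the main carrier of fatty acids and drugs in blood, and had the lowest ratio of the set. Its probe H200014282 had a spot intensity of 1279 with the control lentivirus and 168 with CDR1AS. Its probe AHsV10002209 had 456 and 95.3. Both probes were bright on the control array and dim, though still above background, on the CDR1AS array. In such bulk RNA, fewer cells with ALB transcript and less of it per cell cannot be told apart. Background was set at the mean of the blank spots plus 2 SD, a limit of 69.1 for the control array and 72.1 for the other. After normexp correction with an offset of 50, quantile normalization and log2, the ratios of CDR1AS over control were −3.14 and −2.55, or 8.79-fold and 5.87-fold lower. The offset compresses folds of dim spots, and in the authors' deposited table the values were 577.9 against 45.2 and 186.0 against 11.8, or 12.8-fold and 15.8-fold lower. The 8 spots around the first probe on the array had a median log2 ratio of −0.03 and the 5 gene spots around the other −0.02, so the difference was not shared by the spots beside them. After subtraction of the local background column the ratios were −2.59 and −0.85, which leaves the second probe within 2-fold.

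AFP, the fetal relative of albumin, was also lower on the CDR1AS array, by less. Its spot was 171 in control cells and 120 in CDR1AS cells, with a log2 ratio of −0.66 (1.58-fold lower), and it was 2.16-fold lower in the authors' deposited table (50 against 23.2). After local background subtraction its ratio was 0.10, so the direction turned. AFM, the third gene of the family, had spots of 65.4 and 68.2 and was above background on neither array.

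Among the other carriers, A2M stood out, and the rest had ratios near 0, most of them close to background. A2M encodes alpha-2-macroglobulin, a broad trap for proteases, and its spot was 209 in control cells and 101 in CDR1AS cells. The log2 ratio was −1.27, or 2.41-fold lower, and 4.73-fold lower in the authors' deposited table. After local background subtraction it was −0.35, with a local background of 219 and 110 beside this probe. ORM2, an acute phase carrier of basic drugs whose paralog ORM1 is nearly identical, had 221 and 256 (0.11). The haem carrier gene HPX (−0.03) and AMBP (−0.02), which encodes alpha-1-microglobulin and bikunin, had near-equal spots, 91.8 and 95.7 for HPX and 101 and 106 for AMBP. TTR and RBP4 encode the thyroid hormone and retinol carriers, and TF the iron carrier transferrin. TTR (69.2 and 76.1), TF (71.9 and 78.1) and the brighter RBP4 probe (80.4 and 78.4) were close to the background limit. So were A1BG (81.0 and 87.6, log2 ratio 0.04) and the brighter FETUB probe (73.5 and 80.3, 0.06). Of 11 carriers above background, 8 had a log2 ratio within 0.15 of 0 (72.7%, against 64.6% of all genes), and the median was −0.02. Apart from ORM2, these 8 were under 1.5 times the limit on both arrays, where the offset holds ratios near 0. AFM, AHSG, HP and CP were above background on neither array.

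**Figure D1:**
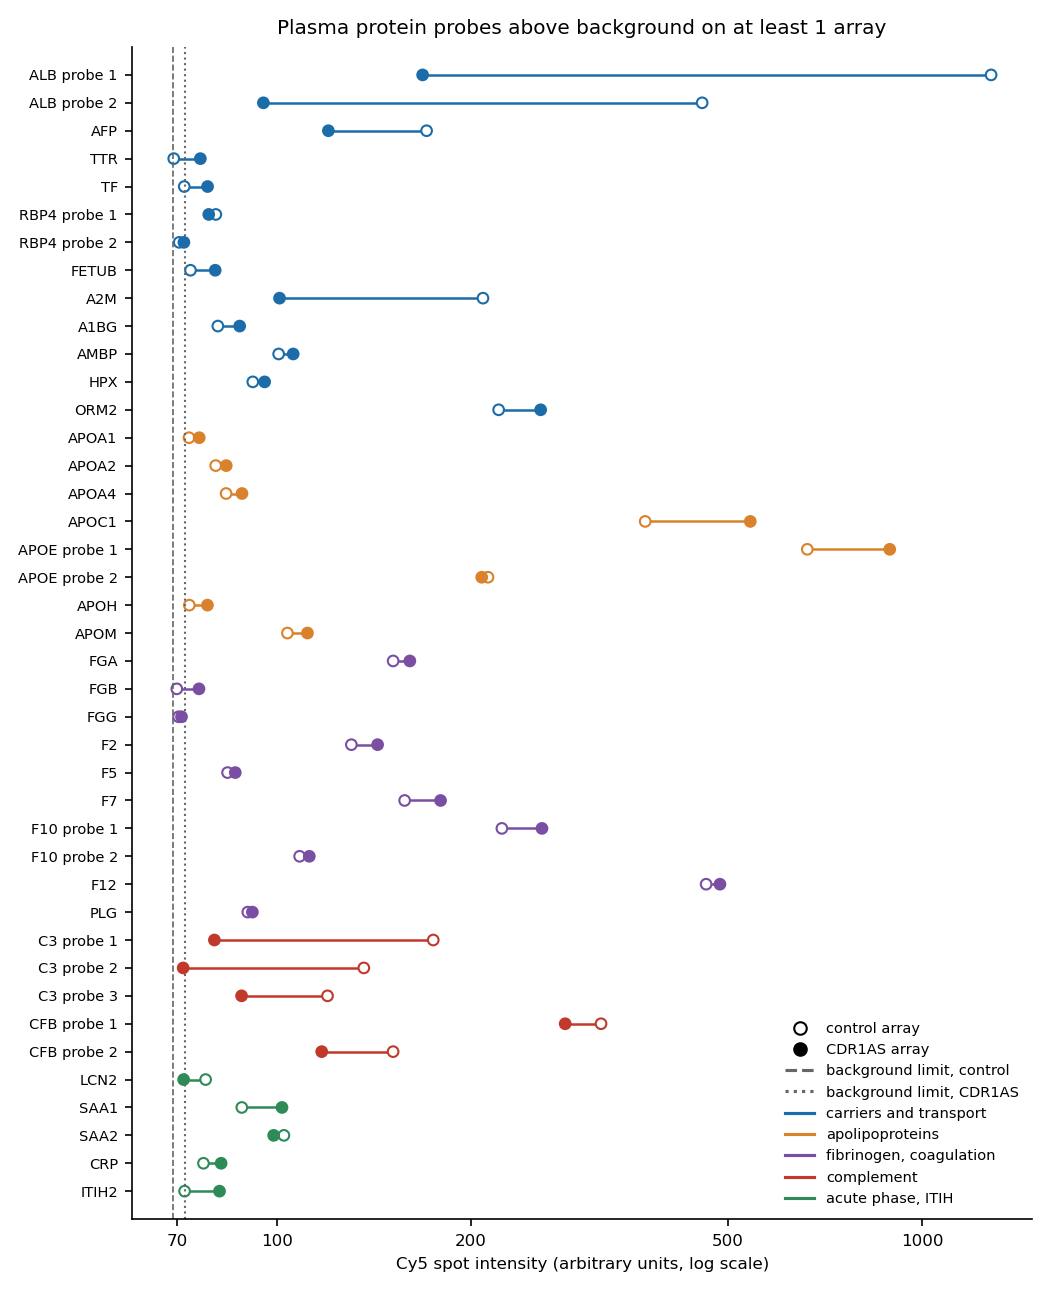
Cy5 spot intensity (log axis) of the 41 plasma protein probes above background on at least 1 array, with open circles for the control array, filled circles for the CDR1AS array, colours for the role, and vertical lines for the background limits of 69.1 (control) and 72.1 (CDR1AS). The ALB probes span the widest gaps, from 1279 to 168 and from 456 to 95.3, and most other probes lie near the limits with their circles close together.

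Of 6 complement genes, C3 was at least 2-fold lower on the CDR1AS array, CFB was lower within 2-fold, and 4 were above background on neither array. C3 encodes the central complement component, and its 3 probes were read separately. Probe DHsGV10002548 had spots of 175 and 80.0 (log2 ratio −1.39), and probe H200008806 had 120 and 88.2 (−0.61). Probe AHsV10000575 had 136 in control cells and 71.6 in CDR1AS cells, under the limit there, so it was at least 2.27-fold lower. All 3 spots were higher on the control array, though none was bright on either. In the authors' deposited table the 3 probes were 10.8-fold, 3-fold and 33.7-fold lower, the last from a value of 1.0 close to the floor of that table. After local background subtraction the ratios were −0.10, 0.03 and −0.38, so the difference was within 2-fold there for each probe. CFB encodes factor B, the protease subunit of the alternative pathway convertase. Its probes had spots of 318 and 280 (−0.31) and of 151 and 117 (−0.52), which is lower by both, within 2-fold. C4BPA, C4BPB, C5 and CFI were those not above background, so the complement median of −0.85 rests on 2 genes.

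Apolipoprotein genes were near equal between the arrays, with APOC1 and APOE slightly higher on the CDR1AS array. APOC1, a small apolipoprotein of triglyceride-rich particles, had spots of 372 and 542 (log2 ratio 0.44, 1.36-fold higher). APOE, the ligand of lipoprotein receptors, had 664 and 891 by its brighter probe (0.30) and 212 and 208 by the other (−0.14), so its probes went opposite ways. For APOC1 the direction turned after local background subtraction (−0.99), its local background being 105 in the control and 335 with CDR1AS. APOM, a carrier of sphingosine-1-phosphate, had 104 and 112 (0.02). APOA1 and APOA2, the main proteins of high-density lipoprotein, were close to background with spots of 73.1 and 75.8 and of 80.4 and 83.5. APOA4 (83.5 and 88.3, 0.00) and APOH (73.2 and 78.1, 0.01) were close to background too. The median of the 7 apolipoproteins above background was 0.01, and APOB and APOC3 were above background on neither array.

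**Figure D2:**
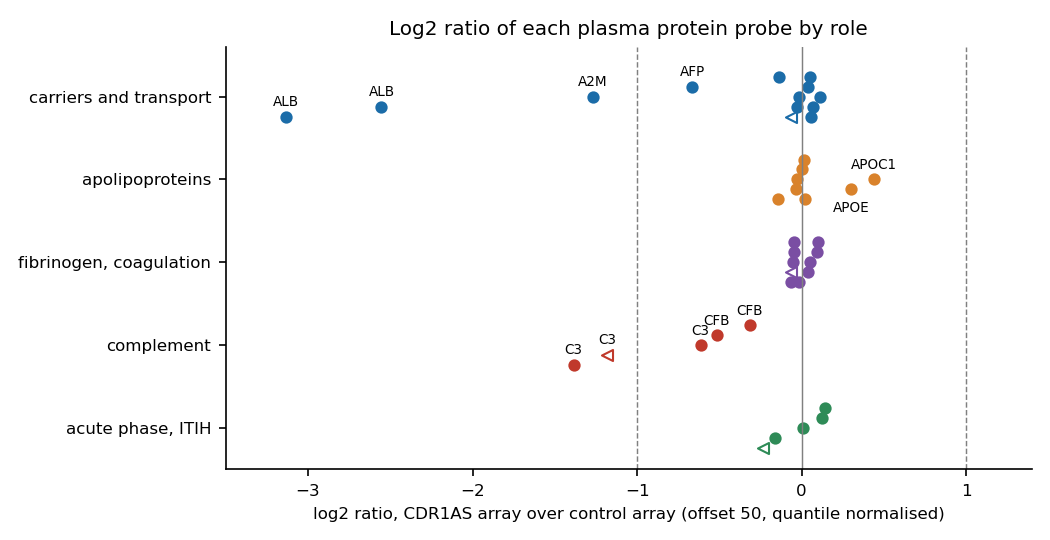
Log2 ratio of CDR1AS over control for each probe above background on at least 1 array (x axis), in rows by role, with dashed lines at 2-fold and open triangles for probes above background on the control array only, whose ratio is a bound. Both ALB probes, A2M and 2 of the 3 C3 probes lie beyond the lower line, no probe lies beyond the upper one, and the fibrinogen and coagulation probes lie between −0.07 and 0.10.

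Fibrinogen and coagulation genes had ratios near 0 in the main setting, several of them close to background. All 9 above background on at least 1 array had log2 ratios within 0.15 of 0, where 64.6% of all genes measured did. They lay between −0.07 and 0.10, with a median of −0.01. F12, the contact factor that starts the intrinsic pathway, had spots of 463 and 486 (−0.05). F10, which encodes the protease that activates prothrombin, had 223 and 258 by its brighter probe (0.10) and 108 and 112 by the other (−0.04). F7, the partner of tissue factor, had 158 and 179 (0.09), and prothrombin's gene F2 had 130 and 143 (0.05). The brighter F10 probe had 0.77 after local background subtraction, where F7 (−0.42) and F2 (−0.48) turned direction. The fibrinogen alpha chain gene FGA had 151 and 161 (−0.01), while FGB (69.99 and 75.8) was near the limits. FGG, the gamma chain, was above background on the control array only. Its spots of 70.4 and 71.2 lay at the limits, so its bound of at least 1.04-fold lower gives no clear direction. Its other probe (0.05) was above background on neither array. F9 was above background on neither array. F5 (83.9 and 86.2) and the brighter PLG probe (90.2 and 91.7) were dim, with ratios of −0.05 and −0.07. FGB, FGG, F5 and PLG lay where the offset holds ratios near 0, so theirs say little.

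Acute phase and inter-alpha-trypsin inhibitor genes were dim on both arrays. LCN2, the siderophore-binding lipocalin of inflamed epithelium, had 77.6 in control cells and 71.7 in CDR1AS cells, under the limit there, and was at least 1.18-fold lower. The authors' deposited table held 5.6 and 1.0 for it, or 5.60-fold lower, the second value again close to the table's floor. SAA1 and SAA2 encode nearly identical serum amyloid A proteins, so their probes may detect either transcript. SAA1 had 88.3 and 102 (0.14) and SAA2 had 103 and 98.9 (−0.16), opposite in sign, but both were below 0 after local background subtraction (−0.15 and −0.11). CRP, the gene of C-reactive protein, had 77.0 and 82.0 (0.01) by its brighter probe. ITIH2, a heavy chain that binds hyaluronan, had 72.0 and 81.5 (0.12), and ITIH1, ITIH3 and ITIH4 were above background on neither array.

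In total, 34 of the 48 genes with a probe were above background on at least 1 array, 32 of them on both, and 14 were on neither, where all their spots lay at 63.7 to 68.5 (control) and 67.4 to 71.8 (CDR1AS). At least 2-fold lower were 3 genes (ALB, A2M and C3), where 0.575% of all 16685 genes measured were, and 0 were at least 2-fold higher, where 0.755% were. The nearest gene inside 2-fold was AFP. Past 2-fold in either direction were 1.33% of all genes. In the authors' deposited table the lower members were 5, with AFP and LCN2 added, where 2.26% of all genes were lower and 3.33% higher by as much. These shares describe the list and were read with no test, since ALB was known to be low when the list was chosen. Of the 34 genes, 17 were below 0 (52.7% of all genes measured were), and 25 lay within 0.15 of 0, or 73.5% against 64.6% of all genes. Both spots were under 1.5 times the background limit in 20 of the 34 (58.8%, against 37.2% of all genes), so most members were measured near the floor of the array. The median log2 ratio was −0.01 for the members and −0.01 for all genes.

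**Figure D3:**
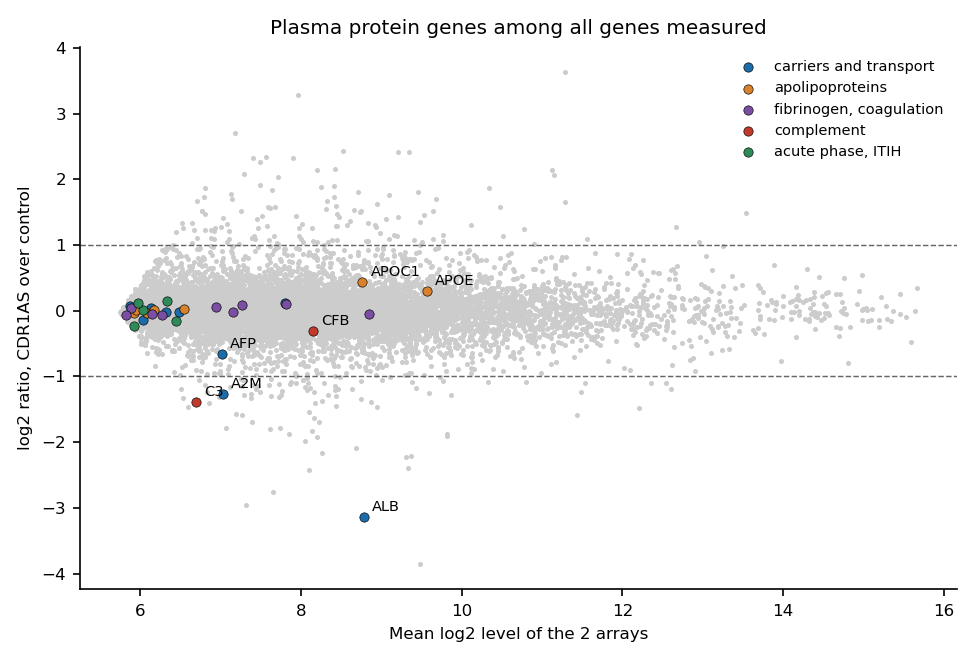
Log2 ratio of CDR1AS over control (y axis) against the mean log2 level of the 2 arrays (x axis) for all 16685 genes measured (grey) and the 34 plasma protein genes (coloured by role), each by its brightest probe, with dashed lines at 2-fold. ALB at −3.14 lies near the bottom of the whole plot, C3 at −1.39 and A2M at −1.27 lie just beyond the lower line among dim genes, and most members sit at the dim left edge close to 0.

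ALB and AFP lie on chromosome 4 beside the genes of CXC chemokines, and this stretch was looked at after its values were seen. In RefSeq order the measured genes run from ALB and AFP through RASSF6 to CXCL8, CXCL6, PF4V1, PF4, PPBP, CXCL5, CXCL3 and CXCL2, followed by MTHFD2L and EREG. CXCL8, the neutrophil chemoattractant interleukin 8, had spots of 1470 and 308 (−2.39), and CXCL6 had 1701 and 506 (−1.88). CXCL3 (−1.79) and CXCL2 (−1.32) were also at least 2-fold lower. After local background subtraction the 4 kept their sign, with CXCL6 (−1.14) and CXCL3 (−1.10) past 2-fold and CXCL8 (−0.71) and CXCL2 (−0.79) within it. The other genes between ALB and CXCL2 were not 2-fold lower. RASSF6, a RAS-association domain gene, had 402 and 676 (0.65, and 0.15 after local background subtraction). PF4V1 had 153 and 196 (0.28, and −0.20 after local background subtraction), and PPBP, PF4 and CXCL5 were dim with ratios of −0.10 to −0.03. On the far side of ALB, ANKRD17 (0.04), COX18 (0.01) and ADAMTS3 (−0.02) were near 0. Among the 23 measured genes of the stretch shown, 15 were below 0 and the median was −0.03. PF4, PPBP, CXCL5, MTHFD2L and ADAMTS3 were under 1.5 times the background limit on both arrays, where the offset holds ratios near 0. Their ratios therefore cannot show whether the low ratios formed an unbroken run. Copy number and chromatin of the stretch were not tested.

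**Figure D4:**
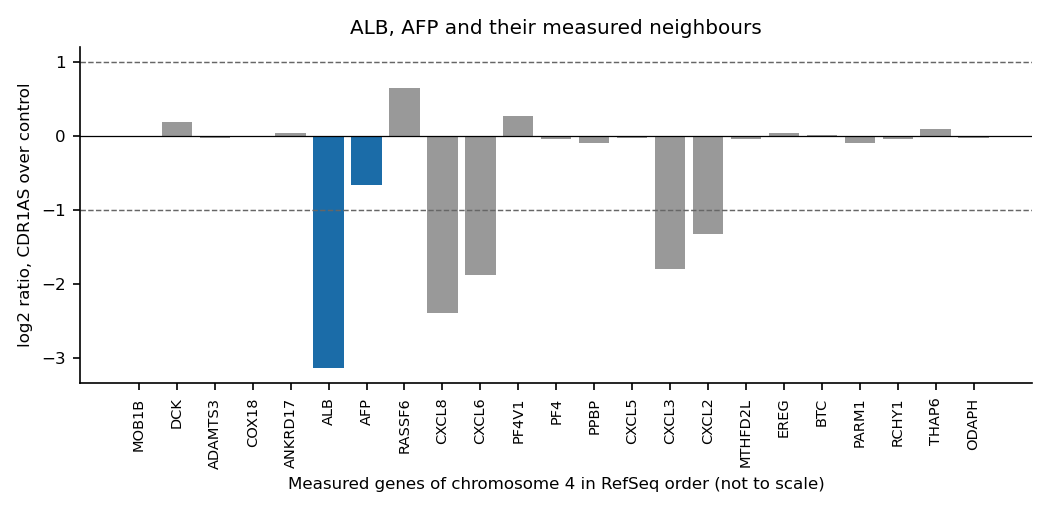
Log2 ratio of CDR1AS over control (bars, y axis) for 23 measured genes of chromosome 4 in RefSeq order (x axis, not to scale), with ALB and AFP in blue and dashed lines at 2-fold. ALB, CXCL8, CXCL6, CXCL3 and CXCL2 reach beyond the lower line, while RASSF6, between AFP and CXCL8, is higher at 0.65.

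Transcription factors that act on these promoters in liver were all within 2-fold, in both directions. Of 16 measured factors, 10 were below 0 and 6 above, 0 were past 2-fold, and the median was −0.02. The leading members were higher: ZBTB20, a zinc finger repressor of AFP in liver, had 792 and 1309 (0.62), and the pioneer factor gene FOXA2 had 160 and 250 (0.58). ZBTB20 was lower after local background subtraction (−0.32). CEBPA had 0.40, CEBPD −0.38 and CEBPB −0.11, the last turning to 1.90 after local background subtraction. Of 15 genes of the interleukin 6 and STAT3 arm, which drives acute phase genes, 10 were below 0 and 0 past 2-fold (median −0.04). The receptor gene IL6R was highest of these (0.46, spots 91.8 and 129), and STAT3 lowest (−0.25, spots 123 and 112).

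Other plasma protein genes outside the 50 went both ways. Among 13 further protease inhibitors, 9 were below 0 and 1 was at least 2-fold lower, with a median of −0.12. That gene was SERPINA1, which encodes alpha-1-antitrypsin and had spots of 741 and 316 (−1.39), but it was higher after local background subtraction (0.67). SERPINA6, which encodes the cortisol carrier, followed (135 and 87.0, −0.83). Among 22 further complement genes, 13 were below 0 and CFD alone was past 2-fold (278 and 136, −1.23). CFD encodes factor D, the protease that cleaves factor B, and its ratio was −0.12 after local background subtraction. C2, the classical-pathway relative of CFB, was next (156 and 94.9, −0.91), while the complement inhibitor gene CD59 (0.73) and CLU (0.72), which encodes clusterin, were higher. CD59 was 1.77 and CLU 0.12 after local background subtraction.

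Among clotting, lipid and iron partners, the genes past 2-fold were higher on the CDR1AS array. Of 15 further coagulation and fibrinolysis genes, 8 were above 0 and 3 were at least 2-fold higher, with a median of 0.00. PLAU, the urokinase gene, had spots of 114 and 456 (2.03), and its other probe had 81.8 and 159 (0.99). The urokinase receptor gene PLAUR had 230 and 503 (1.05), and PROS1, the gene of the anticoagulant protein S, had 142 and 307 (1.07). After local background subtraction these were 0.94, 0.49 and 0.59. Of 12 genes of lipoprotein assembly and clearance, 0 were past 2-fold and the median was −0.02. ANGPTL4, an inhibitor of lipoprotein lipase, was highest (72.2 and 123, 0.81, and 0.20 after local background subtraction), and the next largest was APOA5 (−0.15). Among 14 partners of iron, retinol and thyroid hormone carriers, 12 were below 0 and the ferritin light chain gene FTL was 2.79-fold higher (7032 and 21424, log2 ratio 1.48, and 0.91 after local background subtraction), followed by the iron importer gene SLC11A2 (−0.36, but 0.74 after local background subtraction). The 17 secretory pathway genes had a median of 0.11 and 0 past 2-fold, with TANGO2 (−0.52) and the chaperone gene HSP90B1 (0.42) leading.

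Some markers of colon epithelium were bright on both arrays, whereas others, and the hepatocyte markers except ASS1, were dim. Of 14 colon epithelial markers, 13 had a probe and 12 were above background on each array. At 2 times the limit or more were 6 of the 13 for control and 5 for CDR1AS. MUC13, LGR5, LGALS4, CDX1, KRT20, CEACAM5 and CDH17 were under that level in both populations, as were most hepatocyte markers. Brightness of the colon markers over the blanks summed to 71615 for control and 67064 for CDR1AS, and KRT18 made up most of each sum. KRT18 (56040 and 47565) and EPCAM (8538 and 6334) were bright and lower on the CDR1AS array (EPCAM −0.54). KRT19 (6186 and 12239, 0.83), dimmer than KRT18 on both arrays, was bright and higher, the largest ratio of the list. With local background subtracted, EPCAM was higher by its brighter probe (2.13) and lower by the other (−1.05). In that setting KRT19 was higher (2.03) and KRT18 was near equal by its brightest probe (−0.06). CDX2 had 170 and 109 (−0.82), VIL1 had 0.19 and GPA33 0.17, and CEACAM5 and CDH17 lay at the limit. Of 19 hepatocyte markers with a probe, 17 were above background on each array but 1, ASS1 (520 and 380), was at 2 times the limit or more. The hepatocyte sum was 832 for control and 719 for CDR1AS, a smaller gap than that of the ASS1 spots alone. Of the 17 measured, 9 had ratios below 0 and 8 above, and CYP1A2 and HPD were above background on neither array. Leukocyte markers summed to 245 and 238, fibroblast markers to 410 and 400, endothelial markers to 448 and 448, and yolk sac and stem cell markers to 149 and 128. PTPRC, MS4A1, COL1A1, COL1A2, COL3A1, TEK and LIN28A were above background on neither array. The part of the colon and hepatocyte marker differences in the ALB difference was not tested.

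**Figure D5:**
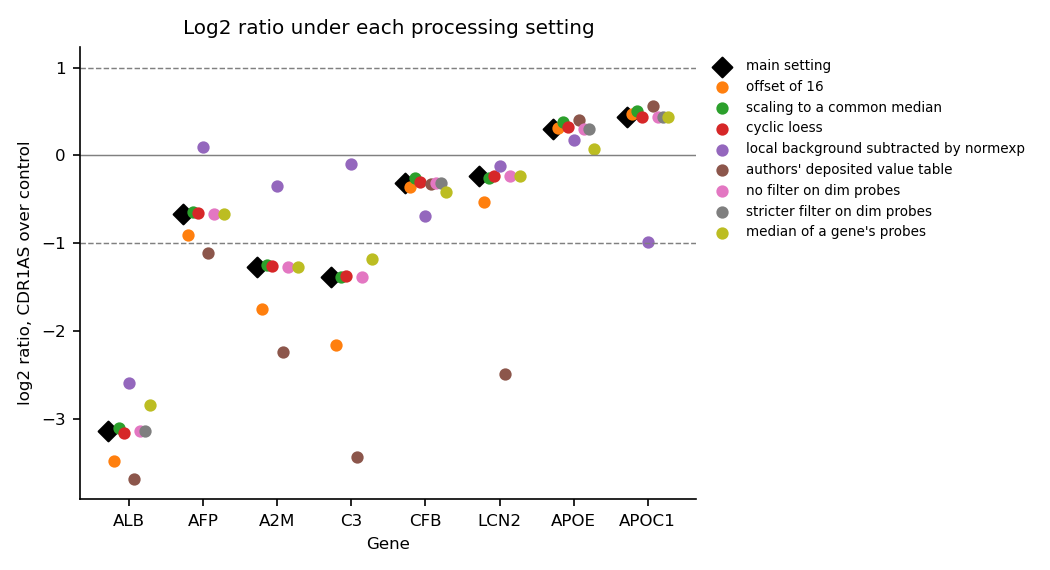
Log2 ratio of CDR1AS over control (y axis) for 8 plasma protein genes (x axis) under the main setting (black diamonds) and 8 processing alternatives (coloured circles), with dashed lines at 2-fold. ALB stays below −2.5 in each setting, AFP and APOC1 change sign after local background subtraction, and A2M and C3 move towards 0 there and away from it in the authors' deposited table (−2.24 and −3.43).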

How the data were processed

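Total RNA of 2 SW620 populations was measured on 2 one-colour arrays. The deposited spot intensity is a median Cy5 brightness combined over scanner gains, per the file headers, and is not corrected for background. The joining of the gains is not described in these sources. The authors' deposited value table also holds intensity. Each column proved a straight line of that array's spots (largest residuals 0.0510 and 0.0559) with a median of 25 and empty cells near the blanks, so its linear scale, lack of gene centring and direction are known. Blank spots averaged 65.9 ± 1.60 (SD, 384 spots) and 69.5 ± 1.30.

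The 24459 gene probes without a quality flag were corrected with limma 3.58.1 in R 4.3.3 (normexp, offset 50, local background unused), quantile normalized and logged. Local background was left out because it tracked spot intensity closely (Pearson's r of log values across gene spots, which are not independent replicates, 0.977 and 0.942). The steps were tested on simulated data, with changes put only into spots above 2 times the limit. Under that level on both arrays were 22 of the 34 members, so the test did not cover them. A gene took its brightest probe. Where 1 array was not above background, that side was raised, where lower, to the dimmest probe above background there, and the fold is "at least". Without replicates there was no test. All members are named. From the partner gene lists, but not the cell type markers, genes past 2-fold and the 2 largest ratios are named, and any others were chosen after their values were seen. The members and lists were chosen with earlier results of these data known. Gene order, promoters and chromosomes came from RefSeq (GRCh38.p14), whereas no source used here names the build of the array's design.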

Additional observations from a re-analysis of the deposited data

How the results depend on the processing

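The sign of ALB held in each of the 8 alternatives, between −3.68 in the authors' deposited table and −2.59 after local background subtraction. The count of members at or past 2-fold, 3 in the main setting, was 3 with an offset of 16, scaling to a common median, cyclic loess, no filter and the median of a gene's probes. It was 5 in the authors' deposited table, which added AFP and LCN2, and 1, ALB, after local background subtraction and with the stricter filter. That filter asked for 2 times the limit on both arrays, left 9 members, and removed A2M and C3, whose CDR1AS spots were dim. The count below 0, 17 in the main setting, was 27 when dim probes were left in and 4 with the stricter filter, which follow from the genes counted. With the same 34 genes it was 24 after local background subtraction, and it was 13 of 33 in the deposited table. The complement median (−0.85) was −1.26 with an offset of 16, −0.40 after local background subtraction, −1.88 in the deposited table, −0.021 with no filter and −0.31 with the stricter filter. The stricter filter gave −1.51 for carriers (ALB and ORM2 only) and 0.37 for apolipoproteins (APOC1 and APOE only), and its complement value was CFB alone. Why local background subtraction moved A2M, C3, AFP and APOC1 was not tested. A value counted as moved past 0.28, the log2 spread of repeated positive-control spots over both arrays, which is within-array error and not replicate error. By that measure 10 of 34 members moved after local background subtraction and 12 of 33 in the deposited table, against 0 with median scaling or loess. No paired analysis was possible because each group was 1 array, and for the same reason no array could be left out.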

Other observations

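Neighbours of the other members were read in the same RefSeq order, after their values were seen. On chromosome 12, A2M (−1.27) lay between KLRG1 (0.12) and its paralog PZP (−0.03), a protease inhibitor raised in pregnancy. None of the 10 neighbours was past 2-fold in the main setting, though M6PR was 2.33 after local background subtraction. C3 (−1.39) on chromosome 19 lay between TNFSF14 (−0.03) and GPR108 (−0.09). On chromosome 6, C2 (−0.91) and CFB (−0.31), adjacent relatives with ZBTB12 (−0.12) between their measured starts, were both lower, while C4B, whose paralog C4A is nearly identical, had 0.14. Farther along chromosome 19 the apolipoprotein cluster was slightly higher together by its brightest probes: TOMM40 had 0.17, APOE 0.30, APOC1 0.44 and the APOC4-APOC2 readthrough symbol 0.57 (spots 198 and 310). After local background subtraction TOMM40 (−0.93) and APOC1 (−0.99) were lower instead, and APOE (0.17) and APOC4-APOC2 (0.84) were not. These are values of 2 arrays, in the main setting within 2-fold for all but A2M and C3. After local background subtraction A2M (−0.35) and C3 (−0.10) were within 2-fold too, and CLPTM1, beside the apolipoprotein cluster, was past it (1.05).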
